A study of Arabidopsis thaliana with 25 samples.

Results

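CLE25, CLE26 and CLE45 encode CLE peptides of the phloem, and CLE41 and CLE44 encode the CLE peptide TDIF, which acts on the cambium. These 5 genes were taken by name, with earlier results of these data known, and are 5 of the 16552 genes that a row naming 1 gene represented on the array. CLE peptides are small secreted signals that are cut from longer precursors and bound at the surface of neighbouring cells by receptor kinases with leucine-rich repeats. In roots CLE25, CLE26 and CLE45 are known from the phloem, where CLE45 acts through the receptor BAM3 to hold back the differentiation of protophloem sieve elements. TDIF is made in phloem cells and bound by the receptor PXY (also called TDR) in the cambium, where it promotes cell division through WOX4 and holds back the formation of xylem.

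The arrays measured RNA from 4-day-old Arabidopsis thaliana seedlings of the Col-0 accession, harvested as root by one label and as root tips by the other. Every plant held a transgene, either pRPS5A::PEAR1-GR (the PEAR1-GR line) or pRPS5A::PEAR2-GR (the PEAR2-GR line). PEAR1 and PEAR2 are transcription factors of the DOF family that act in early phloem, and the RPS5A promoter is active in dividing cells, so the fusions were not restricted to phloem. A GR fusion is kept out of the nucleus until the steroid dexamethasone (DEX) is given, and cycloheximide (CHX) blocks translation. Each line was sampled after 1 h in the solvent DMSO and after 2 h in DEX, in DMSO+CHX and in DEX+CHX, and plants without a GR fusion were not among the samples. There were 25 arrays in 8 groups of 3, except for DEX+CHX in the PEAR1-GR line, which had 4. The 6 DMSO+CHX arrays formed the arraying batch A461 in the labels, and the other 19 arrays formed batch A451.

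The comparison of DEX+CHX with DEX was therefore the one comparison of treatments in which batch and time were shared. DEX against DMSO cannot be told apart from 2 h against 1 h, DEX+CHX against DMSO+CHX cannot be told apart from batch, and DMSO+CHX against DMSO cannot be told apart from batch and time. Arrays of a group correlated at 0.988 to 0.994 across rows, and an array with CHX and one without at 0.89 to 0.922. The PEAR2 row separated the lines as labelled, at no more than 8.90 (log2 intensity) in any PEAR1-GR array and at least 10.73 in every PEAR2-GR array, and PEAR1 was not represented by a named row. The values are log2 intensities without detection calls, so absence cannot be read from a low value, and near the bottom of the range a difference is understated. Of the listed regulators and markers of phloem 2 of 20 had a named row, and of those of cambium 1 of 14. Of the listed markers of xylem, root cap and endodermis none had one, so the makeup of the samples was not checked through these lists. In roots or root tips a lower value from fewer cells of a type and one from less RNA per cell cannot be told apart.

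All 5 genes were higher with DEX+CHX than with DEX in both lines, where 20.1% (PEAR1-GR) and 18.9% (PEAR2-GR) of all rows were called higher. CLE41 differed most, by 2.52 and 2.85 on the log2 scale (5.73-fold and 7.22-fold), followed by CLE25 and CLE44, while CLE26 and CLE45 differed by 1.57-fold to 1.75-fold. Without CHX, 2 h of DEX against 1 h of DMSO moved none of the 5 past the threshold. Of all rows 3.07% and 4.10% passed it there, so this count does not set the 5 genes apart. With CHX, DEX was followed by a higher value of CLE25 in the PEAR2-GR line, where 3.96% of all rows were called higher. Differences were tested with limma over all groups, and a difference was called where its p, adjusted by Benjamini-Hochberg over the 17504 named rows, was under 0.05. Nothing in the labels gives the replicates separate cultures, so a p-value here measures the spread between the samples, and that spread may be technical.

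**Figure D1:**
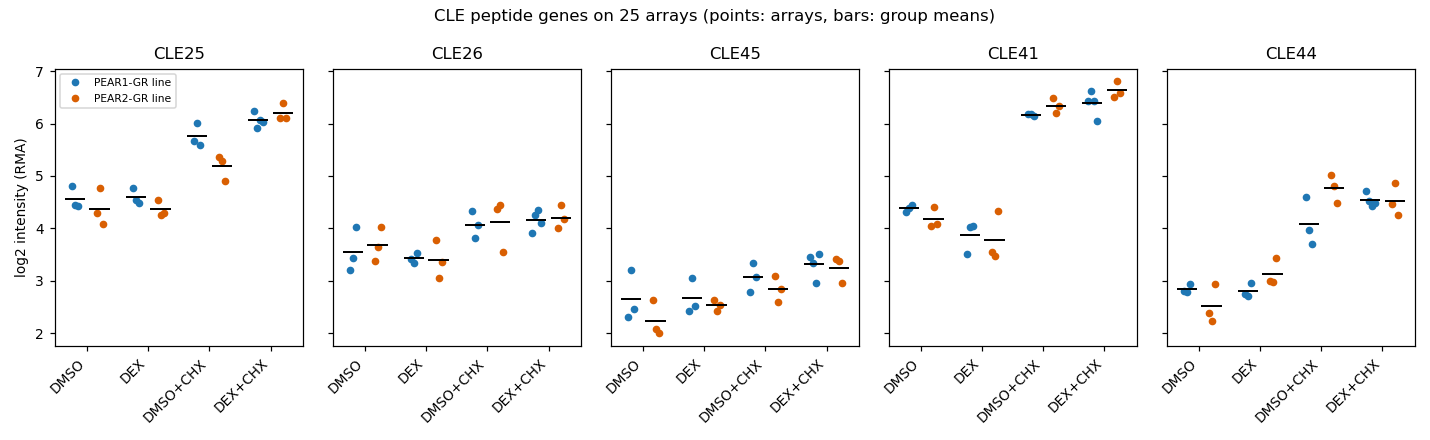
Each point is 1 array, at its log2 intensity (vertical axis), by treatment (horizontal axis) and line (colour), in 1 panel per gene, and black bars are group means. The 13 arrays with CHX all lie above the 12 arrays without it for CLE25, CLE41 and CLE44, while for CLE26 and CLE45 the arrays with and without CHX overlap. The share of all rows that lie apart in this way was not counted.

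CLE25, a phloem CLE gene known from phloem initiation in the root and from long-distance signalling under water deficit, did not overlap between arrays with and without CHX, though the nearest arrays, at 4.91 and 4.81, were close. Its log2 intensities in the PEAR1-GR line were 4.81, 4.45 and 4.42 with DMSO and 4.76, 4.53 and 4.49 with DEX. The PEAR2-GR line gave 4.29, 4.76 and 4.08 with DMSO and 4.55, 4.26 and 4.29 with DEX. These 12 arrays without CHX overlapped throughout, whatever the line or treatment. With CHX, the PEAR1-GR line gave 5.67, 6.01 and 5.59 in DMSO+CHX and 6.24, 5.91, 6.06 and 6.04 in DEX+CHX. The PEAR2-GR line gave 5.36, 5.29 and 4.91 in DMSO+CHX and 6.11, 6.39 and 6.10 in DEX+CHX. The lowest group with CHX was thus DMSO+CHX in the PEAR2-GR line, whose arrays lay below all other CHX arrays and above every array without CHX.

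In order of their means, CLE25 was highest with DEX+CHX in the PEAR2-GR line (6.20 ± 0.17, SD, n = 3), followed by DEX+CHX in the PEAR1-GR line (6.06 ± 0.14, SD, n = 4) and DMSO+CHX in the PEAR1-GR line (5.76 ± 0.22, SD, n = 3), with overlap between neighbours. DMSO+CHX in the PEAR2-GR line came next at 5.19 ± 0.24 (SD, n = 3), overlapping neither neighbour. The 4 groups without CHX followed at 4.37 to 4.60, and each overlapped the next.

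CLE26, a phloem CLE gene whose peptide blocks protophloem formation when it is applied to roots, moved less and less cleanly. Without CHX its values ran from 3.06 to 4.03 with a median of 3.43 over 12 arrays, and with CHX from 3.55 to 4.45 with a median of 4.17 over 13 arrays. Of the 13 CHX arrays, 9 lay above every array without CHX. The array that lay lowest with CHX, at 3.55, was 1 of the 3 DMSO+CHX arrays of the PEAR2-GR line, whose others were at 4.37 and 4.45. By means the groups ran from DEX+CHX in the PEAR2-GR line (4.20 ± 0.22, SD, n = 3) to DEX in the same line (3.39 ± 0.36, SD, n = 3), and each of the 8 groups overlapped the next.

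CLE45, the ligand of BAM3, had values from 2.00 to 3.202 without CHX (median 2.50, 12 arrays) and from 2.59 to 3.51 with CHX (median 3.10, 13 arrays). Of the CHX arrays 6 of 13 lay above every array without CHX. The highest of these without CHX came from 1 DMSO array of the PEAR1-GR line, whose other arrays were at 2.30 and 2.47. The groups ran from DEX+CHX in the PEAR1-GR line (3.32 ± 0.25, SD, n = 4) to DMSO in the PEAR2-GR line (2.24 ± 0.34, SD, n = 3), and again no neighbours were apart. The mean of CLE45 over all arrays was above that of 34.6% of the named rows, the lowest position among the 5 genes, the highest being CLE41 at 56.7%.

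CLE41, which encodes TDIF, had the widest gap between arrays with and without CHX of the 5 genes. Its log2 intensities in the PEAR1-GR line were 4.30, 4.40 and 4.44 with DMSO and 3.52, 4.03 and 4.05 with DEX. The PEAR2-GR line gave 4.04, 4.42 and 4.09 with DMSO and 3.54, 3.47 and 4.34 with DEX. The DEX arrays of the PEAR1-GR line all lay below its DMSO arrays, whereas in the PEAR2-GR line 1 DEX array, at 4.34, lay among the DMSO arrays. With CHX, the PEAR1-GR line gave 6.18, 6.17 and 6.14 in DMSO+CHX and 6.43, 6.63, 6.43 and 6.06 in DEX+CHX. The PEAR2-GR line gave 6.49, 6.21 and 6.33 in DMSO+CHX and 6.51, 6.81 and 6.58 in DEX+CHX. The lowest CHX array, at 6.06, lay above the highest array without CHX, at 4.44.

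CLE41 was highest in DEX+CHX of the PEAR2-GR line (6.63 ± 0.16, SD, n = 3), then in DEX+CHX of the PEAR1-GR line (6.39 ± 0.24, SD, n = 4) and DMSO+CHX of the PEAR2-GR line (6.34 ± 0.14, SD, n = 3), with overlap. DMSO+CHX of the PEAR1-GR line (6.17 ± 0.02, SD, n = 3) lay apart from the group next above it in this order, though its arrays fell inside the range of DEX+CHX in its own line. The 4 groups without CHX followed at 3.78 to 4.38 and overlapped from one to the next.

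CLE44, the other gene that encodes TDIF, was less even within the groups. The PEAR1-GR line gave 2.81, 2.79 and 2.94 with DMSO and 2.75, 2.70 and 2.96 with DEX. The PEAR2-GR line gave 2.38, 2.22 and 2.93 with DMSO and 2.99, 2.97 and 3.43 with DEX. Here the DEX arrays of the PEAR2-GR line all lay above the DMSO arrays, by a margin set by the DMSO array at 2.93, and in the PEAR1-GR line the 2 treatments overlapped. With CHX the values were 4.60, 3.96 and 3.69 for DMSO+CHX and 4.71, 4.53, 4.42 and 4.49 for DEX+CHX in the PEAR1-GR line. For the PEAR2-GR line they were 5.03, 4.82 and 4.49 for DMSO+CHX and 4.46, 4.87 and 4.25 for DEX+CHX. CLE44 was the one gene of the 5 whose highest mean was in a group without DEX, DMSO+CHX of the PEAR2-GR line at 4.78 ± 0.27 (SD, n = 3), although this group overlapped DEX+CHX of both lines. The groups with CHX, at 4.09 to 4.78, lay apart from DEX in the PEAR2-GR line (3.13 ± 0.26, SD, n = 3), which in turn lay apart from the 3 remaining groups at 2.51 to 2.85.

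The effect of CHX in the presence of DEX was asked within 1 batch and at 1 time. All 5 of 5 genes were called higher in the PEAR1-GR line, in a comparison in which 20.1% of all tested rows were called higher and 26.0% lower. The PEAR2-GR line also had 5 of 5 called higher, against 18.9% of rows higher and 26.3% lower. As the 5 genes were chosen with earlier results of these data known, these counts are a description and not an independent test. The median difference of the 5 genes was 1.47 in the PEAR1-GR line and 1.39 in the PEAR2-GR line (log2), and that of all tested rows was -0.0937 and -0.123.

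Among the phloem genes, CLE25 rose by 1.47 (log2, SE 0.16, 2.77-fold) in the PEAR1-GR line and by 1.83 (SE 0.17, 3.56-fold) in the PEAR2-GR line, with limma adjusted p of 5.79e-08 and 6e-09. No CHX array overlapped an array without CHX in either line. CLE26 rose by 0.72 (SE 0.22, adjusted p = 0.0108) and 0.81 (SE 0.24, adjusted p = 0.00809), and its groups were apart in both lines. CLE45 rose by 0.65 (SE 0.22, adjusted p = 0.0158) and 0.72 (SE 0.23, adjusted p = 0.0139), with overlap in the PEAR1-GR line, where the highest DEX array was at 3.05 and the lowest DEX+CHX array at 2.96. Some of these calls rested on single arrays. That of CLE45 was lost without PEAR1-GR DEX replicate 1 (0.53, adjusted p = 0.0882) or 3 (0.59, 0.0627) and without PEAR2-GR DEX+CHX replicate 1 (0.63, 0.0566) or 2 (0.65, 0.0529). That of CLE26 in the PEAR2-GR line was lost without DEX replicate 2 (0.64, adjusted p = 0.0553).

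Of the TDIF genes, CLE41 rose by 2.52 (SE 0.18, 95% interval 2.15 to 2.89, 5.73-fold) in the PEAR1-GR line and by 2.85 (SE 0.19, 95% interval 2.46 to 3.25, 7.22-fold) in the PEAR2-GR line, with limma adjusted p of 5.36e-11 and 2.06e-11. CLE44 rose by 1.73 (SE 0.20, 3.32-fold, adjusted p = 1.42e-07) and 1.39 (SE 0.21, 2.62-fold, adjusted p = 9.45e-06). All groups of CLE41 and CLE44 were apart in both lines. The share of all rows whose groups were apart was not counted, for this or any other comparison, and the share called higher here was 20.1% and 18.9%.

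**Figure D2:**
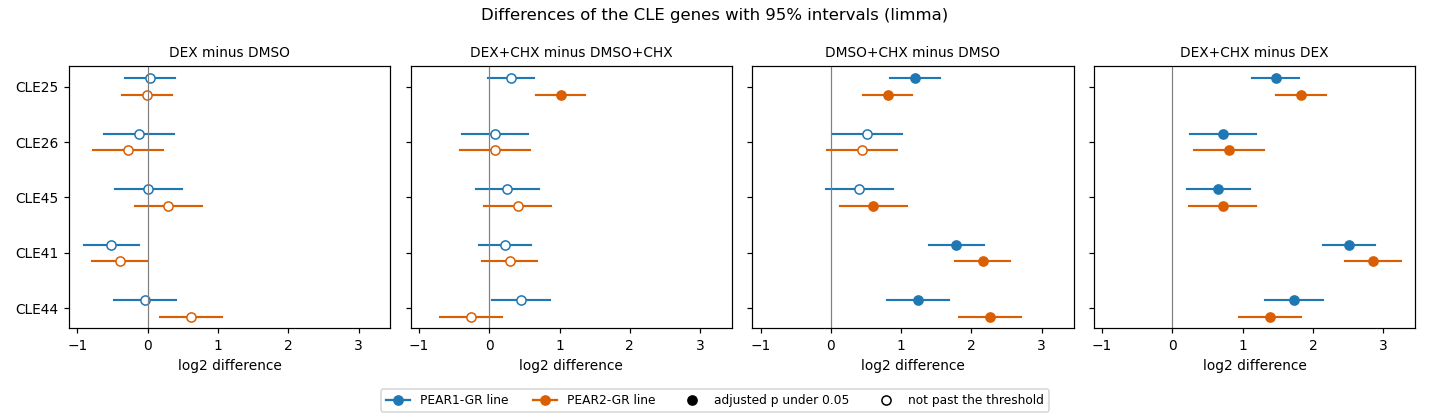
Log2 differences (horizontal axis) of the 5 genes (vertical axis) in 4 comparisons, with lines for the 95% intervals of limma, colours for the 2 GR lines and filled circles for an adjusted p under 0.05. In the 2 comparisons of CHX on the right the intervals of CLE25, CLE41 and CLE44 lie above 0 in both lines, and in the comparisons of DEX on the left 1 circle is filled, CLE25 of the PEAR2-GR line with CHX.

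CHX without DEX was asked by DMSO+CHX against DMSO, groups that also differ in batch and time. The groups differ from those of the comparison above, although all arrays enter the estimate of the spread in both. For the PEAR1-GR line 3 of 5 genes were called higher (20.3% of all rows higher, 25.2% lower), and in the PEAR2-GR line 4 of 5 (21.5% higher, 25.2% lower). The median of the 5 genes was 1.19 in the PEAR1-GR line and 0.81 in the PEAR2-GR line, and that of all rows was -0.0945 and -0.0431.

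CLE41 rose by 1.79 (SE 0.19, 3.45-fold, adjusted p = 5.01e-08) and 2.16 (SE 0.19, 4.47-fold, adjusted p = 2.11e-09) in the PEAR1-GR and PEAR2-GR lines. CLE44 rose by 1.24 (SE 0.21, 2.36-fold, adjusted p = 3.88e-05) and 2.27 (SE 0.21, 4.81-fold, adjusted p = 5.72e-09). CLE25 rose by 1.19 (SE 0.17, 2.29-fold, adjusted p = 3.35e-06) and 0.81 (SE 0.17, 1.75-fold, adjusted p = 0.000345). In the PEAR2-GR line the 95% intervals of the TDIF pair overlapped, at 1.77 to 2.56 for CLE41 and 1.83 to 2.71 for CLE44.

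CLE26 did not pass the threshold in either line, at 0.51 (SE 0.24, adjusted p = 0.0902) and 0.45 (SE 0.24, adjusted p = 0.142). CLE45 did not pass it in the PEAR1-GR line, at 0.41 (SE 0.23, adjusted p = 0.164), and passed in the PEAR2-GR line, at 0.61 (SE 0.23, adjusted p = 0.035) with overlapping groups. The calls of both genes turned on single arrays. CLE45 in the PEAR2-GR line was lost without DMSO replicate 2 (0.53) or 3 (0.49), without DMSO+CHX replicate 1 (0.48) or 3 (0.61, adjusted p = 0.0707), and with array weights (0.54). In the PEAR1-GR line CLE26 was called without DMSO replicate 3 (0.75) and CLE45 without DMSO replicate 2 (0.68), and in the PEAR2-GR line CLE26 was called without DMSO+CHX replicate 3 (0.73).

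The scale on which arrays are compared bears on all CHX differences, since so many rows moved. Quantile normalization of the deposited values once more moved the median of all rows in DEX+CHX against DEX from -0.0937 to 0.145 in the PEAR1-GR line and from -0.123 to 0.120 in the PEAR2-GR line. On that scale CLE41 differed by 2.77 in the PEAR1-GR line, and all 5 genes were still called higher in both lines. Of all named rows 8782 and 8302 were called there in either direction. In DMSO+CHX against DMSO quantile normalization moved the median from -0.0945 to 0.114 and from -0.0431 to 0.120. CLE26 and CLE45 of the PEAR1-GR line (0.90 and 0.85) and CLE26 of the PEAR2-GR line (0.79) then passed the threshold. Named rows called were 8319 and 8582.

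DEX without CHX asked what followed activation of the fusions when new protein could be made, here 2 h of DEX against 1 h of DMSO. The PEAR1-GR line had 0 of 5 genes called, where 3.07% of all rows were called in either direction and 2466 rows had an unadjusted p under 0.05. The PEAR2-GR line had 0 of 5 called, where 4.10% of rows were and 2687 had an unadjusted p under 0.05. CLE41 was lower in the mean in both lines, by -0.52 (95% interval -0.91 to -0.12, adjusted p = 0.181) in the PEAR1-GR line and -0.40 (95% interval -0.80 to -0.01, adjusted p = 0.317) in the PEAR2-GR line. CLE44 was higher in the PEAR2-GR line, by 0.62 (95% interval 0.18 to 1.06, adjusted p = 0.116), and was at -0.04 (95% interval -0.49 to 0.40, adjusted p = 0.959) in the PEAR1-GR line. Both TDIF genes of the PEAR2-GR line passed with 1 array left out, CLE41 without DEX replicate 3 (-0.68, adjusted p = 0.0266) and CLE44 without DMSO replicate 3 (0.83, adjusted p = 0.0451).

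The phloem genes were close to 0 in these comparisons. CLE25 differed by 0.03 (95% interval -0.32 to 0.39) in the PEAR1-GR line and -0.01 (95% interval -0.36 to 0.35) in the PEAR2-GR line. CLE26 differed by -0.13 (95% interval -0.62 to 0.37) and -0.28 (95% interval -0.78 to 0.22), and CLE45 by 0.01 (95% interval -0.47 to 0.49) and 0.29 (95% interval -0.19 to 0.77). The intervals of CLE25 leave out a change of more than 0.39 (log2) in either direction in both lines, while those of CLE26 and CLE45 reach past 0.47.

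DEX in the presence of CHX asked which transcripts followed the fusions without newly made protein. In the PEAR1-GR line 0 of 5 genes were called, where 3.59% of rows were called in either direction and 2.18% were called higher, and 2783 rows had an unadjusted p under 0.05. All 5 differences there were above 0, from 0.08 (CLE26) to 0.45 (CLE44, 95% interval 0.04 to 0.86, adjusted p = 0.257), and the groups of every gene overlapped. In the PEAR2-GR line 1 of 5 was called, where 7.44% of rows were called in either direction and 3.96% higher. This was CLE25, higher by 1.02 (log2, SE 0.17, 95% interval 0.66 to 1.37, 2.02-fold) with a limma adjusted p of 0.000711 and with its 3 DEX+CHX arrays above its 3 DMSO+CHX arrays.

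CLE25 in the PEAR2-GR line was called under each alternative that was run, at 0.877 to 1.102 (log2) when any 1 array was left out. Against the DMSO arrays of the same batch, a control without CHX, its difference was 1.83, which then includes that of CHX and of time. DMSO+CHX in this line was also the lowest of the CHX groups for CLE25, so the call rests on the 3 arrays of batch A461 at 5.36, 5.29 and 4.91. In the PEAR1-GR line, where DMSO+CHX was at 5.76, the same comparison of CLE25 gave 0.31 (SE 0.16, 95% interval -0.02 to 0.64, adjusted p = 0.354). The other 4 genes of the PEAR2-GR line were at 0.08 (CLE26), 0.40 (CLE45), 0.29 (CLE41) and -0.25 (CLE44), with adjusted p between 0.353 and 0.904. Of these, CLE41 had its 3 DEX+CHX arrays, the lowest at 6.51, just above its 3 DMSO+CHX arrays, the highest at 6.49.

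Whether the DEX difference itself differed with and without CHX was tested as an interaction. None of the PEAR1-GR line, 0 of 5 genes, was called (4.53% of rows in either direction), with the largest value for CLE41 at 0.73 (95% interval 0.19 to 1.27, adjusted p = 0.126). In the PEAR2-GR line 1 of 5 was called (5.48% of rows), CLE25, whose DEX difference was 1.02 larger with CHX than without (95% interval 0.52 to 1.52, adjusted p = 0.0132). Fitted on the 4 groups compared alone, its adjusted p was 0.0568. CLE41 and CLE44 of the PEAR2-GR line had values of opposite sign, 0.69 (95% interval 0.13 to 1.25, adjusted p = 0.142) and -0.88 (95% interval -1.50 to -0.25, adjusted p = 0.0924). CLE41 passed without DEX replicate 3 (0.97), and CLE44 passed without DEX+CHX replicate 2 (-1.05) or DMSO replicate 3 (-1.09).

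The lines did not differ past the threshold in any of the 5 genes under any treatment, in comparisons that share batch and time. The members called were 0 of 5 with DMSO, where 0.189% of rows were called and 1720 had an unadjusted p under 0.05, and 0 of 5 with DEX, where 0.731% were called and 1922 had one. They were 0 of 5 with DMSO+CHX, where 0.114% of rows were called and 1347 had an unadjusted p under 0.05, and 0 of 5 with DEX+CHX, where 0.171% were called and 1218 had one. The largest differences were with DMSO+CHX, where CLE25 was higher in the PEAR1-GR than in the PEAR2-GR line by 0.57 (95% interval 0.22 to 0.92, adjusted p = 0.244) without overlap, and CLE44 was lower by -0.69 (95% interval -1.13 to -0.25, adjusted p = 0.272). With DEX+CHX these genes were at -0.14 and 0.01 between the lines.

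The effect of DEX was compared between the lines too. For DEX without CHX 0 of 5 genes differed between the lines (0.109% of rows called, 1768 at an unadjusted p under 0.05), the largest value being CLE44 at -0.67 (95% interval -1.29 to -0.04, adjusted p = 0.446). For DEX with CHX 0 of 5 did (0.0171% of rows called, 1079 at an unadjusted p under 0.05). There CLE25 was at -0.71 (95% interval -1.19 to -0.22, adjusted p = 0.602) and CLE44 at 0.70 (95% interval 0.10 to 1.31, adjusted p = 0.741). The call of CLE25 in the PEAR2-GR line and its absence in the PEAR1-GR line are thus not shown to differ.

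The rest of the CLE family was counted beside the 5 genes. Of 27 other family members listed, 12 had a row of their own. Of these, CLE1, CLE14, CLE16, CLE20, CLE21, CLE42 and CLE43 carry the platform annotation's symbol, which was matched through the symbol and not through a gene identifier. With DEX+CHX against DEX 20.1% of all rows were called higher and 26.0% lower in the PEAR1-GR line, and 18.9% and 26.3% in the PEAR2-GR line. Of the 12 genes, 5 rose and 2 fell in the PEAR1-GR line, and 5 rose and 0 fell in the PEAR2-GR line, with medians of 0.07 and 0.11. The genes that rose in both lines were CLE14, known for ending root meristem growth under low phosphate, at 3.70 and 3.81 (log2), CLE21 at 2.40 and 2.23, CLE20 at 1.00 and 1.13, CLE16 at 0.62 and 0.70, and CLE43 at 0.43 and 0.68. CLE14 and CLE21 therefore had differences on either side of that of CLE41. CLE1, a nitrogen-responsive gene, and CLE27 fell in the PEAR1-GR line, by 0.91 and 0.50, and the call of each was lost with quantile normalization (-0.51 and -0.24). CLE1 was at -0.52 (adjusted p = 0.251) in the PEAR2-GR line, and the difference of this effect between the lines was not tested. The call of CLE43 in the PEAR1-GR line was lost without DEX+CHX replicate 4 (adjusted p = 0.0541) or DEX replicate 3 (adjusted p = 0.125). CLE42, whose peptide is closely related to TDIF, did not pass the threshold, at -0.01 (PEAR1-GR) and -0.47 (PEAR2-GR).

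**Figure D3:**
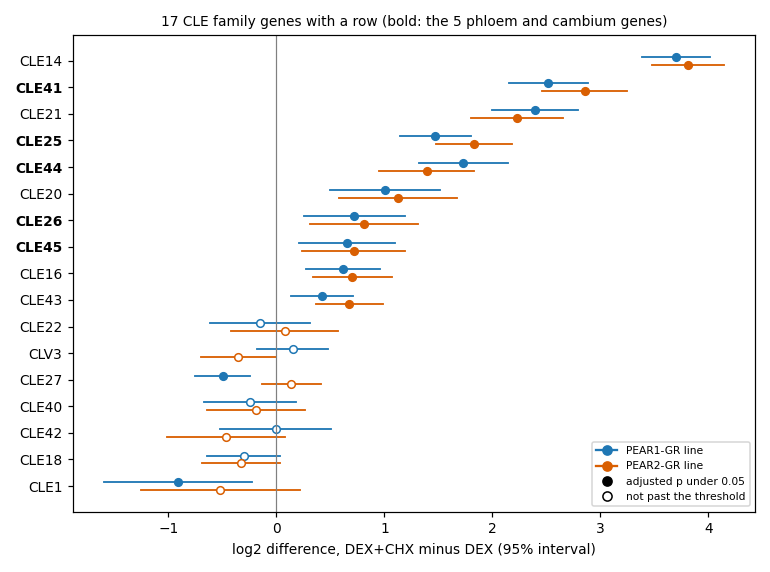
Log2 difference of DEX+CHX minus DEX (horizontal axis) for the 17 CLE family genes with a row (vertical axis), with 95% intervals of limma, colours for the lines and filled circles for an adjusted p under 0.05. The 5 phloem and cambium genes, in bold, all lie to the right of 0 in both lines, among 5 other genes that do so and 7 whose differences lie on both sides of 0 or below it.

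In DMSO+CHX against DMSO, 4 of the 12 other family genes rose and 1 fell in the PEAR1-GR line (20.3% of all rows higher, 25.2% lower). In the PEAR2-GR line 4 rose and 0 fell (21.5% higher, 25.2% lower). CLE21 (3.19 and 3.78), CLE14 (2.74 and 2.97) and CLE20 (0.97 and 1.97) rose in both lines. CLE43 rose by 0.51 and CLE1 fell by 1.24 in the PEAR1-GR line, and CLE40, which acts in the root stem cell niche, rose by 0.59 in the PEAR2-GR line. The call of CLE40 was lost with the groups compared fitted alone (adjusted p = 0.073) and without DMSO replicate 1 or 3 or DMSO+CHX replicate 1 or 3 (0.41 to 0.57, adjusted p = 0.0732 to 0.177). CLE42 was at -0.41 and -0.13 and passed in neither. With DEX against DMSO, CLE14 fell in both lines, by 1.01 (adjusted p = 0.00065) and 0.97 (adjusted p = 0.000721), and CLE27 rose in the PEAR1-GR line by 0.48 and CLE43 fell in the PEAR2-GR line by 0.61. With the groups compared fitted alone, the calls of CLE27, CLE43 and, in the PEAR1-GR line, CLE14 were lost (adjusted p = 0.302, 0.156 and 0.161). With DEX+CHX against DMSO+CHX CLE21 fell in both lines, by 0.77 (adjusted p = 0.0253) and 1.61 (adjusted p = 5.66e-05). Of all rows 1.41% and 3.48% were called lower there, and of the 5 phloem and cambium genes 0 were. The call of CLE21 in the PEAR1-GR line was lost with the groups compared fitted alone (adjusted p = 0.0746) and without DEX+CHX replicate 1 or 4 or DMSO+CHX replicate 2 or 3 (adjusted p = 0.0731 to 0.138). Between the lines 0 of the 12 were called in each of the 4 treatments, where 0.114% to 0.731% of all rows were called.

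Receptors and co-receptors of CLE peptides were represented by 2 of 19 listed genes, PXL1 and PXL2, receptor kinases related to PXY. PXY itself and the BAM and CLV receptors were not represented by a named row. PXL1 moved against the peptide genes: with DEX+CHX against DEX it fell by 0.83 (SE 0.15, adjusted p = 7.14e-05) and 0.84 (SE 0.16, adjusted p = 0.000134), and in DMSO+CHX against DMSO its differences were -1.099 and -1.458. PXL2 fell in DMSO+CHX of the PEAR2-GR line, by 1.12. Both rose with DEX+CHX against DMSO+CHX in the PEAR2-GR line, by 0.62 and 0.68, calls that were lost with the groups compared fitted alone (adjusted p = 0.0983 and 0.127). Each gene has a second row. The other row of PXL1 differed from the first: it was at -0.10 in DEX+CHX against DEX of the PEAR1-GR line and was called in none of the comparisons of CHX. In the PEAR2-GR line that of PXL2 fell in DMSO+CHX against DMSO as the first row did, by 0.54. It rose by 0.38 in DEX+CHX against DEX, where the first row was not called. The values of these receptors are thus uncertain.

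The other phloem genes with a row were OPS, a membrane protein that promotes protophloem differentiation, and SWEET11, a sucrose exporter. OPS fell by 1.55 and 1.02 and SWEET11 by 0.72 and 1.77 in DMSO+CHX against DMSO, where batch and time also differ. Of all rows 25.2% were called lower there in each line. In DEX+CHX against DEX they fell in the PEAR2-GR line by 1.04 and 0.95, where 26.3% of rows were called lower. In the PEAR1-GR line 0 of the 2 were called in that comparison (26.0% of rows lower), with a median of -0.47 and overlapping groups. The call of SWEET11 in DMSO+CHX against DMSO of the PEAR1-GR line was lost with the groups compared fitted alone (adjusted p = 0.0524) and without DMSO replicate 3 (-0.46) or DMSO+CHX replicate 1 (-0.60). MOL1, a receptor-like kinase that restrains the cambium, fell by 0.69 and 0.50 in DMSO+CHX against DMSO, calls that were lost with quantile normalization (-0.28 and -0.11). Of OPS, SWEET11 and MOL1, 0 of 3 were called higher in either comparison of CHX, where 18.9% to 21.5% of all rows were. With DEX+CHX against DMSO+CHX, OPS rose in the PEAR1-GR line by 0.74 (adjusted p = 0.0482) and SWEET11 in the PEAR2-GR line by 0.75 (adjusted p = 0.0483), calls that were lost with the groups compared fitted alone (adjusted p = 0.0531 and 0.0796). SWEET11 was also lower in the PEAR1-GR than in the PEAR2-GR line with DMSO (-1.25, adjusted p = 0.0211) and with DEX (-1.11, adjusted p = 0.0233).

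Markers of other tissues moved with CHX in part. RCA, Rubisco activase and the 1 of 5 green tissue markers with a row, was at 5.58 to 6.58 with CHX and 6.19 to 7.16 without it. It fell in DMSO+CHX against DMSO, where batch and time also differ, by 1.13 and 1.00. In DEX+CHX against DEX it was at -0.20 and not called in the PEAR1-GR line. In the PEAR2-GR line it fell by 0.42 (adjusted p = 0.0378), a call that was lost on leaving out 5 of its 6 arrays one at a time, at -0.28 to -0.46. That call was also lost with the groups compared fitted alone, quantile normalization, the 75th percentile shift and a replicate block (adjusted p = 0.0544 to 0.0926). Beside the lower mean of CLE41 with DEX in the PEAR1-GR line, RCA fell there by 0.61 (adjusted p = 0.0414), a call that was lost with the groups compared fitted alone (adjusted p = 0.197). EXPA7, a root hair expansin and the 1 of 3 root hair markers with a row, was at 9.22 to 9.86 with CHX and 9.43 to 10.05 without it and was called in none of the comparisons. The part of these tissues in the differences of the CLE genes was not tested.

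The genes whose values followed each of the 5 most closely over the 25 arrays were chosen by Pearson's r of log2 values. All arrays share 2 lines, 2 batches and the large gap between CHX and no CHX, so r mainly orders genes by that gap and is given as a description. For CLE41 these were AT1G70590 (r = 0.986), AT1G80450 (0.985) and AT4G27280 (0.985), and 1507 genes had an r of at least 0.9. For CLE44 they were AT1G13510 (0.971), AT2G20950 (0.955) and AT2G42350 (0.955), with 1013 such genes, and for CLE25 they were AT3G23160 (0.956), AT5G57100 (0.954) and AT1G21050 (0.952), with 296. CLE26 and CLE45 had 0 genes at that level. Their nearest were AT1G67410 (0.853), AT5G11020 (0.830) and AT5G51150 (0.820) for CLE26, and AT1G75230 (0.842), AT1G05640 (0.824) and AT5G57100 (0.811) for CLE45.

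The 5 genes were themselves most alike in CLE41 and CLE44 (r = 0.915 over 25 arrays) and least alike in CLE26 and CLE45 (r = 0.404). With the group means taken out, the values of the pairs ran from -0.285 (CLE26 and CLE45) to 0.490 (CLE26 and CLE44), with 0.307 for CLE41 and CLE44 and values between -0.0443 and 0.0232 for CLE25 with the other 4. The likeness of the 5 over all arrays was thus largely that of the group means. By the same measure without group means the nearest genes were AT5G62660 for CLE25 (0.794), AT2G17970 for CLE26 (0.772), AT3G05190 for CLE45 (0.780), AT2G31090 for CLE41 (0.863) and AT3G01590 for CLE44 (0.841).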

How the data were processed

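The deposited values are log2 intensities. The authors used RMA (background correction, normalization between arrays and 1 summary per row), per the submitters' processing notes, on Affymetrix arrays with biotin-labelled sense target, per the labels' protocols. Not given in the sources used here are RMA's version and options, its level of summary and the genome build. The table has 38408 rows for 25 arrays. Rows were named through the platform annotation and the RefSeq table of TAIR10.1: 16746 rows name 1 gene (16601 matched to RefSeq, 145 with the platform's name), 758 name several and 20904 name none. CLE25, CLE26, CLE45, CLE41 and CLE44 (AT3G28455, AT1G69970, AT1G69588, AT3G24770 and AT4G13195) have 1 row each. For a gene with several rows the one with the highest mean was used.

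A model with 1 mean per group was fitted with lmFit and eBayes of limma 3.58.1 in R 4.3.3, with Benjamini-Hochberg adjustment over the 17504 named rows and a threshold of 0.05, and was checked on simulated data. Precision is limited by how many arrays a group has. The text names the 5 genes, PEAR1 and PEAR2, listed genes of the CLE family, receptors, phloem, cambium and marker lists with a row, and the nearest genes by correlation. The members and lists were chosen with earlier results of these data known. Alternatives were the compared groups fitted alone, a robust prior with a trend over intensity, the filter of the dimmest 33.3% of rows, quantile normalization once more, a shift to a common 75th percentile, array weights, a replicate block, all rows, DMSO of the same batch as control, and each array left out. Batch could not be fitted, as DMSO+CHX alone made up batch A461. Python 3.11.15 with matplotlib 3.10.9 drew the figures.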

Additional observations from a re-analysis of the deposited data

Results flagged for a closer look

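The interaction test of limma called 4.53% of all rows in the PEAR1-GR line and 5.48% in the PEAR2-GR line. The DEX difference was larger or smaller with CHX than without it, past the threshold of this test, for 6 values among the genes named, each on the log2 scale as the difference with CHX minus that without. For CLE25 of the PEAR2-GR line it was 1.02 (adjusted p = 0.0132), where DEX was followed by a difference of 1.02 with CHX and -0.01 without it. For CLE14 it was 0.962 (adjusted p = 0.0135) in the PEAR1-GR line and 0.844 (adjusted p = 0.0312) in the PEAR2-GR line, where CLE14 fell with DEX alone. For CLE21 of the PEAR2-GR line it was -1.55 (adjusted p = 0.00224), CLE21 being lower with DEX+CHX than with DMSO+CHX by 1.61. For PXL2 of the PEAR2-GR line it was 1.1 (adjusted p = 0.0186), and for OPS of the PEAR1-GR line 1.09 (adjusted p = 0.0406). Fitted on only the groups compared, those of CLE25, PXL2, OPS and, in the PEAR1-GR line, CLE14 were no longer past the threshold (adjusted p = 0.0568, 0.0621, 0.0679 and 0.0662). That of CLE14 in the PEAR2-GR line was lost with quantile normalization (adjusted p = 0.0513) and on leaving out each of 9 arrays in turn (adjusted p = 0.0531 to 0.0724). That of PXL2 was also lost on leaving out each of 4 arrays (adjusted p = 0.0508 to 0.0605), and that of OPS with all rows tested (adjusted p = 0.0603) and on leaving out each of 7 arrays (adjusted p = 0.0611 to 0.123). The second row of PXL2, not among the 6 values, was called in this interaction too, at 0.916 (adjusted p = 0.00192). With DEX against DMSO in the PEAR2-GR line that row was at -0.551 (adjusted p = 0.00734). In all 6 the contrast sets a pair of groups that differ in batch beside a pair that differ in time, so CHX cannot be told apart from these.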

How the results depend on the processing

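The calls of the 5 genes in DEX+CHX against DEX were kept in both lines under each setting other than leaving out single arrays. Of the values of single genes under alternatives, 1504 kept direction and side of the threshold, 135 lost it, 18 gained it and 30 turned sign. Replicate numbers did not pair the samples (correlations of deviations -0.12 to 0.097). The replicate block left the members called at 5 and 5 for DEX+CHX against DEX. They were 3 and 4 for DMSO+CHX against DMSO, and 0 and 1 for DEX+CHX against DMSO+CHX. In these comparisons 7704 and 7811, 7871 and 8074, and 366 and 1178 named rows were called under the block. Calls of other genes passed out of the threshold under it, among them CLE21 (DEX+CHX against DMSO+CHX, adjusted p = 0.102) and CLE43 (DEX+CHX against DEX, 0.083) of the PEAR1-GR line and the interaction of CLE14 in the PEAR2-GR line (0.05). In the PEAR1-GR line DEX+CHX replicate 4 had a block of its own and so did not enter the differences. Leaving out that array alone gave the same differences, -0.65 for CLE21 and 0.35 for CLE43. The block was not run for the lines within 1 treatment, where it holds the line itself. DMSO of the same batch as the control of DEX+CHX adds the difference of CHX and time by construction. With it 5 members were called in the PEAR1-GR line and 4 in the PEAR2-GR line. Of all named rows 8081 and 7779 were called there in either direction, so these member counts do not set the 5 genes apart. The sign turned for CLE21 (2.42 and 2.18) and OPS of the PEAR1-GR line (-0.80). In the PEAR2-GR line it turned for CLE44 (2.01), PXL1 (-0.84), PXL2 (-0.44) and SWEET11 (-1.02). With quantile normalization 5 members were called in DMSO+CHX against DMSO of the PEAR1-GR line, where 8319 named rows were called in either direction. With only the groups compared, 0 members were called in the PEAR2-GR interaction of DEX and CHX, where 539 named rows were called. Differences near 0 turned in DEX against DMSO: CLE45 of the PEAR1-GR line with the 75th percentile shift (-0.0058) and array weights (-0.0096), and CLE25 of the PEAR2-GR line with quantile normalization (0.0503) and array weights (0.0204). With 1 array left out, DEX against DMSO in the PEAR1-GR line ran from -0.0489 to 0.16 (CLE25), -0.30 to 0.11 (CLE26), -0.18 to 0.28 (CLE45) and -0.12 to 0.0067 (CLE44), and in the PEAR2-GR line from -0.16 to 0.19 (CLE25), with 0 to 1 members called. Of the named rows, 349 to 455 in the PEAR1-GR line and 465 to 646 in the PEAR2-GR line were called then. DEX+CHX against DMSO+CHX of CLE26 ran from -0.0387 to 0.21 and from -0.21 to 0.24. The interaction ran from -0.0296 to 0.39 (CLE26) and -0.027 to 0.44 (CLE45) in the PEAR1-GR line and from -0.0872 to 0.26 (CLE45) in the PEAR2-GR line, with 1 to 2 members called there. Of the named rows, 678 to 917 were called in that interaction of the PEAR2-GR line. The cause of these shifts was not tested.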
